A study of Mus musculus with 92 samples.

Results

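Skeletal muscle was compared with spinal cord and blood in wild type mice. The material was 15 arrays of tibialis anterior, a fast limb muscle of the lower leg, 15 arrays of spinal cord and 15 arrays of blood, out of 92 arrays in the whole series. Members were the wild type arrays of both ages, chosen by their labels and by no measured value. The series profiled carriers of the G93A-SOD1 transgene, a model of amyotrophic lateral sclerosis, and their wild type littermates; the carriers' arrays enter no comparison below. All 45 wild type arrays came from littermates of the line labelled B6.Cg-Tg(G93A-SOD1)1Gur/J, with no treatment named in the labels. Each tissue had 8 arrays at 70 days of age and 7 at 100 days. Muscle RNA came from the left tibialis anterior, spinal cord RNA from the lumbar segment, and blood RNA from PAXgene tubes after depletion of globin transcripts. Red cell globins are therefore no measure of blood here. The labels do not say whether arrays with one replicate number shared a mouse.

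A muscle fibre is a long cell with many nuclei, packed with sarcomeres in which myosin pulls on actin. Calcium released from the sarcoplasmic reticulum starts each contraction, and creatine phosphate, glycogen and mitochondria supply the ATP. Fast and slow fibres use different gene copies for most contractile proteins, and muscle also uses its own copies of many enzymes that other tissues encode elsewhere in the genome.

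Values are normalised probe intensities on the log2 scale, on which the dimmest probes lay near 4.5 and the brightest near 15. A probe was called detected on an array at a detection p-value under 0.05, and 11219 genes entered the tests, 9543 of them with a gene symbol. The muscle arrays detected 8512 to 10602 probes (median 9144), the spinal cord arrays 9208 to 13353 (median 11835) and the blood arrays 6809 to 9231 (median 8161). A gene was called different at a Benjamini-Hochberg adjusted p from limma under 0.05 together with a difference of at least 1 on the log2 scale. Errors after ± are standard errors of the limma fit over 15 arrays a tissue. Each probe's level was compared between tissues and never with that of another probe.

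Tissue labels were checked against marker lists, as the mean over a list of each gene's value relative to its mean over 45 arrays. Fast fibre markers stood at 4.63 to 5.14 in muscle, -2.96 to 3.53 in spinal cord and -4.002 to -2.89 in blood. Neuron markers stood at 3.06 to 3.50 in spinal cord and -2.16 to -0.82 in muscle, and T cell markers at 2.85 to 3.75 in blood and -1.82 to -1.60 in muscle. On each of these lists the labelled tissue did not overlap with the other 2. Nothing in the labels says that the arrays of a group came from separate mice, so p-values measure the spread between arrays.

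Several arrays stood apart. Spinal cord replicates 3 and 5 at 70 days held muscle transcripts: both lay above the other 13 spinal cord arrays for 348 of the 1312 genes that were higher in muscle than in both other tissues (26.5%), against 412 of all 11219 genes (3.67%) and 0 of the 486 genes that were lower in muscle than in both. Muscle replicate 7 at 100 days lay more than 1 log2 unit above the other 14 muscle arrays for 73 genes, of which 71 were lower in muscle than in spinal cord; on the other muscle arrays that number was 0 to 6. Spinal cord replicate 5 at 100 days was dim, and blood replicate 6 at 70 days had a median raw signal of 190.8 against 89.9 on the next highest blood array. Where spinal cord replicates 3 and 5 at 70 days or muscle replicate 7 at 100 days moved the end of a gene's printed range by over 0.5 log2 units, the range without them is given too.

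Against the mean of spinal cord and blood, 2066 genes were higher in muscle (18.4% of those tested) and 2247 were lower (20%), so 38.4% of all genes differed. Against spinal cord alone 1975 genes were higher (17.6%) and 2178 lower (19.4%), and against blood alone 2597 were higher (23.1%) and 2440 lower (21.7%). In muscle 1312 genes were above both other tissues (11.7%), and for 1041 of them every muscle array lay above every other array. Another 486 genes were below both (4.33%), 354 of them without overlap. Of all genes tested 14.9% had muscle arrays that did not overlap with the other tissues. The differences of the genes above both had a median of 2.14, and 177 of them were at least 4. These shares depend on the scale: with arrays set to a common median instead of a common distribution, the median difference of all genes against spinal cord moved from 0.06 to -0.34 and against blood from 0.00 to 0.16, and the share of called genes that were higher in muscle moved from 47.6% to 25.5% against spinal cord and from 51.6% to 66.3% against blood. Without spinal cord replicates 3 and 5 at 70 days, 1304 genes were above both, 1292 of them the same genes, and 486 were below both, 478 of them the same. Without muscle replicate 7 at 100 days the counts were 1319, sharing 1296, and 488, sharing 481. The plot of both differences shows contractile genes at the upper right, nerve and glia genes at the left and blood cell genes at the bottom. A bulk array cannot tell fewer cells of a type from less RNA per cell.

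**Figure D1:**
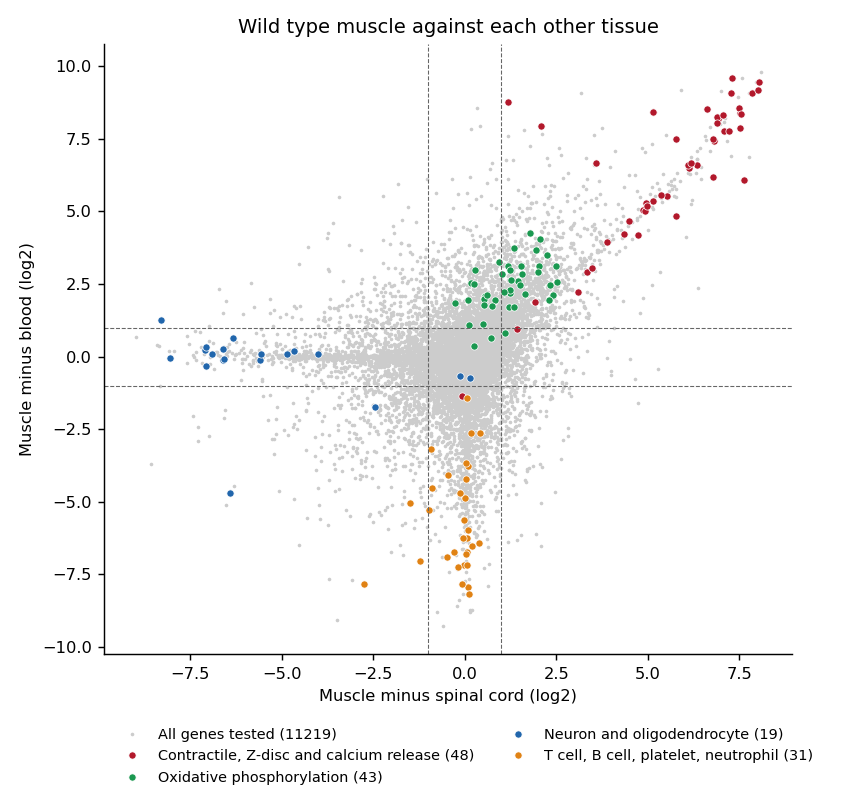
Each point is 1 of the 11219 genes tested, placed by its log2 difference between wild type muscle and spinal cord (x axis) and between muscle and blood (y axis), 15 arrays a tissue; dashed lines mark 1 log2 unit in each direction. Contractile, Z-disc and calcium release genes (red) reach 8.03 against spinal cord and 9.59 against blood, while neuron and oligodendrocyte genes (blue) spread along the x axis and T cell, B cell, platelet and neutrophil genes (orange) along the y axis.

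The gene with the largest fitted difference among those above both tissues was Ckm, the cytosolic creatine kinase of muscle, which regenerates ATP from creatine phosphate. Its probe read 14.24 to 14.81 (median 14.57) in muscle, 4.93 to 12.88 (median 5.79) in spinal cord and 4.54 to 5.27 (median 4.79) in blood. Every muscle array was above every other array, and the 2 highest spinal cord values were those of replicates 3 and 5 at 70 days, with the other 13 at most 6.601. The difference from the mean of both tissues was 8.95 ± 0.42 (limma adjusted p = 7.85e-24). Against spinal cord alone it was 8.09 ± 0.49, a 272-fold difference, and without those 2 arrays 9.01, a 516-fold difference. Blood gave no detected value on 15 arrays, so muscle was at least 414-fold higher than blood and at least 328-fold higher than the mean of both.

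Bounds of this kind set the muscle mean against a floor, which on each array is the higher of the probe's own signal and the lowest signal among detected probes. Of the 20 genes with the largest fitted differences 11 were undetected in blood, with bounds 0.42 to 0.71 log2 units under the fitted difference, so their order by size is not settled. Over all 135 named genes that were higher in muscle, 55 were undetected in a tissue, and their bounds lay 0.11 to 0.86 units under the fitted differences. Only 50 of these 55 bounds were at least 1 unit, and the lowest was 0.46. Lrp4 and Snrpn were among the genes whose bounds fell short of 1 unit, at 0.90 and 0.54. The same pattern held for Ttn, which encodes titin, the molecular spring of the sarcomere. It read 14.28 to 15.02 (median 14.45) in muscle, 4.89 to 11.93 (median 5.92) in spinal cord and 4.66 to 6.07 (median 5.02) in blood. Muscle was 8.03 ± 0.41 above spinal cord, 8.79 without the 2 arrays, and at least 408-fold above blood; the other 13 spinal cord arrays read at most 6.80. Other Ttn probes gave smaller differences from the mean of both tissues, of 5.02 and 3.87, against 8.75 for the brightest.

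Of the 20 genes with the largest differences, 19 had a gene symbol. Myoz1, which ties calcineurin to the Z-disc, differed by 8.59 ± 0.37 from the mean of both tissues. Actn3, the alpha-actinin of fast fibres, differed by 8.46 ± 0.38, and Tnnt3, the fast troponin T, by 8.45 ± 0.42. Mb, the oxygen store myoglobin, differed by 8.43 ± 0.40. Mitochondrial creatine kinase Ckmt2 differed by 8.71 ± 0.41 and the phosphoglycerate mutase Pgam2 by 8.58 ± 0.41. Muscle forms of cytochrome c oxidase subunits, Cox6a2 and Cox8b, differed by 8.21 ± 0.42 and 8.07 ± 0.33. The others with a symbol were Cmya5, Mybpc2, Myh4, Hrc, Tmod4, Nrap, Car3, Myh2 and Tnnc2, between 7.57 and 8.19, and the probe ILMN_2736987, for which no gene is given, differed by 7.66 ± 0.29. In all 20 the muscle arrays did not overlap with either tissue. Leaving out spinal cord replicates 3 and 5 at 70 days raised the fold against spinal cord by 1.52 to 1.90 times in these genes.

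**Figure D2:**
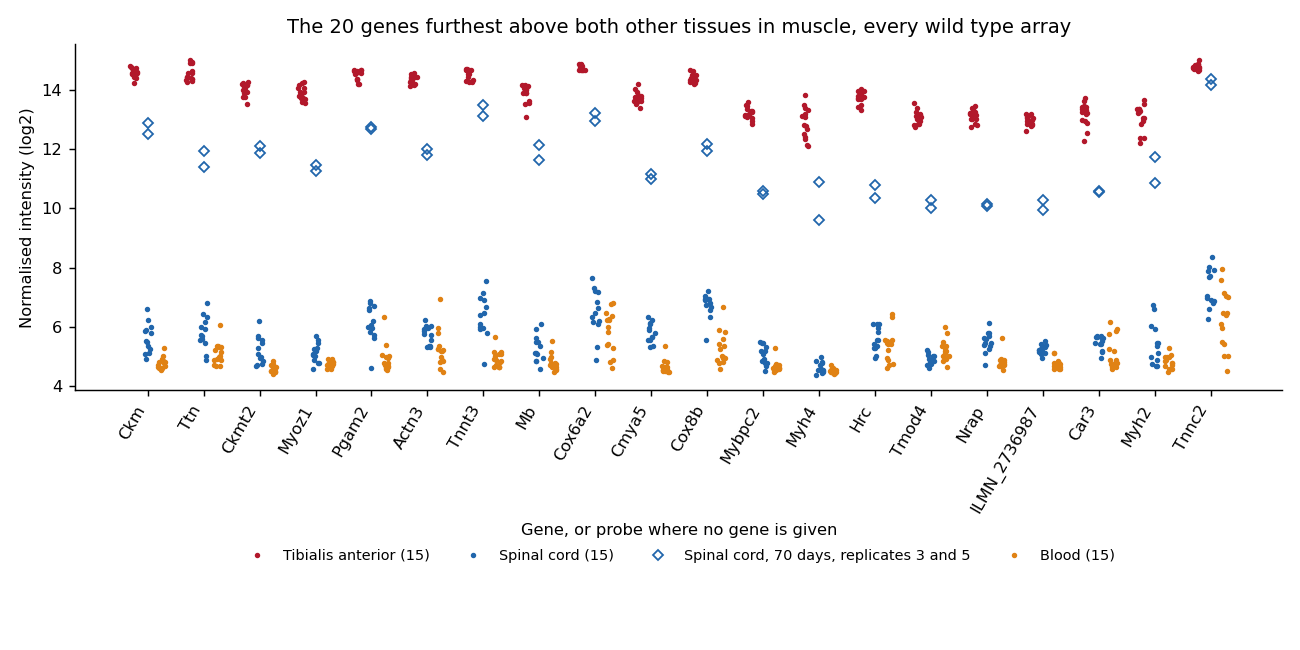
Normalised log2 intensity (y axis) of the 20 genes furthest above both tissues (x axis), with 1 point for each of 45 wild type arrays; open diamonds are spinal cord replicates 3 and 5 at 70 days, and points are spread sideways only to separate them. Muscle arrays of Ckm lie between 14.24 and 14.81, the 2 open diamonds come next, and the other spinal cord and blood arrays lie lowest.

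Promoter windows are shown for 3 of these 20 genes, the only ones of the 14 with a window in which a match to the MEF2 motif was found, which the MEF2 factors bind. The sequences are from RefSeq, build GRCm38.p6, 250 bases before to 50 after the start of the gene, 5′ to 3′ on the gene's strand. Capitals mark the MEF2 match and each E-box (CANNTG), the site of the MyoD family of myogenic factors.
Ttn, chr2:76982498-76982797, minus strand: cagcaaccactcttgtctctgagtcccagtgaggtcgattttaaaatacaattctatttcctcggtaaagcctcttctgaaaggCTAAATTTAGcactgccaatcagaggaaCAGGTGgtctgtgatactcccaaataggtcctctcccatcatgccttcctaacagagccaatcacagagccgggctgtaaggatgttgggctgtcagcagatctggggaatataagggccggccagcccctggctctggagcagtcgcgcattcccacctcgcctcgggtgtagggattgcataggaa
Pgam2, chr11:5803747-5804046, minus strand: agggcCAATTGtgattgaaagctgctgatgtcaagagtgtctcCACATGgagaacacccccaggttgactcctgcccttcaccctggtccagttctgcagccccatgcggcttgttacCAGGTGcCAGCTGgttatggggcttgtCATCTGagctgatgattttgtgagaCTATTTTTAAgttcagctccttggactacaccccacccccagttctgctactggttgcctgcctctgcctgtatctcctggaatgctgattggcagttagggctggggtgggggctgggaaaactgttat
Myh4, chr11:67237562-67237861, plus strand: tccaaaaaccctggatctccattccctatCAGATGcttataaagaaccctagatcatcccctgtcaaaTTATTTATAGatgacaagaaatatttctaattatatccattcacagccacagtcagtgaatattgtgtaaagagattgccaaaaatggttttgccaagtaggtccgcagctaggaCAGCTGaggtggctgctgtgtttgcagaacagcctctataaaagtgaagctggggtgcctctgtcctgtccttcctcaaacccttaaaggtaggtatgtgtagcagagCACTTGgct
Ttn had 1 E-box in its window, Pgam2 had 5 and Myh4 had 3. The MEF2 match began 166 bases before the start in Ttn, 80 before it in Pgam2 and 182 before it in Myh4.

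A window was available for 14 of the top 20 genes, 74 of the top 100, 948 of the genes above both and 7712 of the genes tested. The MEF2 motif, searched on both strands, occurred in 13.5% of the top 100 windows, 3.80% of those above both, 1.85% of those tested and 3.26% of all 27025 windows. The E-box CAGCTG was in 40.5% of the top 100 windows, 17.0% of those above both and 15.4% of those tested, and it is counted within CANNTG, which was in 85.1% and 64.2% of the top 100 and the tested windows. The CArG box of serum response factor was in 10.8% and 1.48%, the MCAT motif (CATTCC) in 23.0% and 12.0%, and TATAAA in 18.9% and 8.25%. Over all 27025 windows the shares were 16.1% for CAGCTG, 72.1% for CANNTG, 1.57% for the CArG box, 14.6% for MCAT and 14.2% for TATAAA. The larger shares were those of the 100 most muscle-biased genes, while over all genes above both the shares of the CArG box and TATAAA were 1.58% and 8.12%. Genes below both tissues had CAGCTG in 18.0% and CANNTG in 69.7% of 350 windows, against 17.0% and 67.9% for those above both, and the MEF2 motif in 1.14%. These are matches of letters, given as a description with no test. The MEF2 and TATAAA patterns can overlap, as they do in Myh4.

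All 9 tested members of the fast fibre list were higher in muscle and above both tissues, with a median difference of 7.57 from the mean of both, beside -0.12 over all genes. Of all genes 18.4% were higher than that mean, 20% were lower and 11.7% were above both, beside this and the list counts below. The muscle lists were made of genes of muscle, so their direction is no independent evidence. Myh4, the heavy chain of the fastest fibres, read 12.11 to 13.84 (median 12.81) in muscle, 4.38 to 10.91 (median 4.59) in spinal cord and 4.40 to 4.72 (median 4.52) in blood, and was detected on 2 of 15 spinal cord arrays, replicates 3 and 5 at 70 days. Without these spinal cord read at most 4.97, it was detected on 0 of 13, and muscle was at least 227-fold higher. In the list of slow fibre and cardiac genes 12 of 13 were higher, with a median of 3.21. Myl3, the slow light chain, differed by 7.48 ± 0.35 (against spinal cord by 6.96, and by 7.64 without replicates 3 and 5 at 70 days), Actc1, the actin of heart and developing muscle, by 7.16 ± 0.27, and Ankrd2, a stretch-responsive protein, by 5.91 ± 0.29. Of sarcomere genes shared by fibre types, 11 of 12 were higher, among them Myom2 of the M-band at 7.49 ± 0.31 (against spinal cord 7.21, and 7.82 without those 2 arrays) and Mybpc1, the slow myosin binding protein C, at 7.43 ± 0.26.

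Z-disc and sarcomere assembly genes were higher in 15 of 15 cases (median 5.54). Tcap, the cap of titin at the Z-disc, read 13.95 to 14.45 (median 14.20) in muscle, 5.70 to 12.74 (median 6.55) in spinal cord and 4.53 to 6.88 (median 6.23) in blood. Nrap, a scaffold of assembling myofibrils, differed by 7.69 ± 0.28. The muscle arrays of both genes lay above all arrays of the other tissues. Without spinal cord replicates 3 and 5 at 70 days Tcap read at most 7.33 in spinal cord, and its difference from that tissue went from 6.88 ± 0.43 to 7.69.

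Genes that couple excitation to contraction were higher in 12 of 12 cases (median 5.19), all above both tissues. Ryr1, the calcium release channel, read 13.13 to 13.83 (median 13.29) in muscle, 4.83 to 10.17 (median 5.04) in spinal cord and 6.49 to 7.89 (median 7.30) in blood, so every blood array lay above the other 13 spinal cord arrays once replicates 3 and 5 at 70 days were left out. Those 13 read at most 5.52, and without the 2 arrays the difference from spinal cord went from 7.63 ± 0.35 to 8.27. Casq1, the calcium store of the sarcoplasmic reticulum, differed by 7.56 ± 0.26, Hrc by 7.96 ± 0.32 and Sypl2, a protein of the triad, by 7.14 ± 0.26. Of muscle membrane channels and their partners 5 of 6 were higher. The cyclic AMP binding proteins Bves and Popdc2 and the potassium channel Kcna7 were detected on all muscle arrays, on 0 of 15 blood arrays and in spinal cord on 2 arrays only, so muscle was at least 29.3-fold, 13.8-fold and 6.88-fold higher than the mean of both. The sodium pump partner Fxyd1 differed by 2.70 ± 0.15.

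The neuromuscular junction list was mixed, with 4 of 8 tested members higher than the mean of both tissues and 0 lower, beside 18.4% and 20% of all genes, and with 3 higher and 2 lower than spinal cord. Rapsn, which clusters acetylcholine receptors, read 8.71 to 9.33 (median 9.05) in muscle, 5.005 to 6.39 (median 5.41) in spinal cord (at most 5.85 without replicates 3 and 5 at 70 days) and 4.53 to 5.11 (median 4.66) in blood. The receptor subunits Chrnb1 and Chrne differed by 3.49 ± 0.11 and 1.81 ± 0.09. Chrne replaces the fetal gamma subunit in adult muscle. The agrin receptor Lrp4 was at least 4.86-fold higher than blood, but differed from spinal cord by -0.49 ± 0.09, under the size that counts as a call. Over the list the median difference was 1.40 against blood and -0.04 against spinal cord.

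In the dystrophin complex and membrane repair list 12 of 14 were higher (median 2.54), and 13 of 14 without muscle replicate 7 at 100 days. Sgca, the alpha-sarcoglycan, read 10.27 to 10.91 (median 10.46) in muscle, 4.48 to 7.13 (median 4.69) in spinal cord and 4.45 to 4.78 (median 4.58) in blood, and was detected in spinal cord on the 2 arrays with muscle transcripts, the other 13 reading at most 4.77. The caveola protein Cavin4 differed by 4.82 ± 0.11 and the sarcoglycan partner Sspn by 3.52 ± 0.21.

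Fuel genes were higher across several routes. In glycogen metabolism 9 of 9 were higher (median 4.71), including Pygm, the muscle phosphorylase whose loss causes McArdle disease, at 5.99 ± 0.17, the glycogen synthase Gys1 at 4.90 ± 0.17 and the glycogen binding protein Stbd1 at 5.09 ± 0.10. In glycolysis and lactate export 12 of 13 were higher (median 4.39). Eno3, the muscle enolase, read 14.74 to 15.20 (median 14.96) in muscle, 4.74 to 13.48 (median 6.72) in spinal cord and 7.46 to 8.77 (median 8.03) in blood, and 2 spinal cord arrays made its range wide; without them spinal cord read at most 7.21 and its difference from muscle went from 7.76 ± 0.50 to 8.69. All 5 tested genes of the phosphagen and purine nucleotide cycle were higher, with Ak1, an adenylate kinase, at 5.57 ± 0.10 and Adssl1, the muscle adenylosuccinate synthase, at 4.42 ± 0.13.

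Mitochondrial genes differed by less, and by more against blood than against spinal cord. In fatty acid oxidation 18 of 19 were higher (median 2.78), with Pdk4, which spares glucose by switching off pyruvate dehydrogenase, at 6.22 ± 0.25, and the fatty acid carrier Fabp3 at 6.12 ± 0.13. In the citric acid cycle and pyruvate dehydrogenase 16 of 17 were higher and 1 was lower. Idh3a and Idh3b, subunits of the same isocitrate dehydrogenase, went opposite ways. Idh3a read 11.47 to 11.99 (median 11.72) in muscle, 9.46 to 10.67 (median 10.27) in spinal cord and 5.77 to 7.13 (median 6.64) in blood. Idh3b read 7.26 to 8.03 (median 7.60) in muscle, 10.88 to 11.38 (median 11.16) in spinal cord and 8.55 to 9.75 (median 9.43) in blood, so its muscle arrays lay below every other array, and the differences were 3.29 ± 0.09 and -2.67 ± 0.07. Each gene was represented by its brightest probe. In oxidative phosphorylation 37 of 43 were higher (median 1.90). The median of that list was 2.46 against blood and 1.23 against spinal cord, and 26 of 43 were above both. Ndufb5 and Ndufb10 of complex I differed by 3.06 ± 0.14 and 3.01 ± 0.13, Uqcrb of complex III by 2.88 ± 0.14 and the ATP synthase subunit Atp5g1 by 2.82 ± 0.10.

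Of 23 cytosolic ribosomal proteins 0 were higher and 3 were lower than the mean of both tissues, beside 18.4% and 20% of all genes. In the same list 2 were higher than spinal cord and 9 lower than blood, beside 17.6% and 21.7% of all genes. Their median was -0.86 against blood and -0.04 against spinal cord. The 3 lower members were Rpl13a, Rps16 and Rps9. Rpl13a read 8.27 to 8.86 (median 8.57) in muscle, 9.14 to 9.65 (median 9.45) in spinal cord and 10.57 to 11.20 (median 10.88) in blood, with no overlap. Rps16 and Rps9 differed by -1.19 ± 0.08 and -1.04 ± 0.08. Rpl3l, a copy of the ribosomal protein L3 gene used by skeletal muscle and heart and listed among the isoform families, read 13.89 to 14.33 (median 14.17) in muscle, 5.203 to 11.97 (median 6.36) in spinal cord and 5.45 to 8.53 (median 7.48) in blood. Without replicates 3 and 5 at 70 days it read at most 6.85 in spinal cord, and its difference from that tissue went from 7.28 ± 0.41 to 8.03.

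Of 7 tested transcription factors of the myogenic programme 3 were higher than the mean of both tissues and 4 were not called. Of all genes 18.4% were higher. The median difference of the list was 0.86. Vgll2, a partner of TEAD factors, read 10.35 to 11.14 (median 10.59) in muscle, 4.54 to 7.48 (median 4.69) in spinal cord and 4.59 to 5.000 (median 4.72) in blood, and without the 2 arrays spinal cord read at most 4.93. Myf6, the MyoD family member most expressed in adult fibres, differed by 5.36 ± 0.17, and Mef2c by 3.15 ± 0.19. Mef2c was nearer to blood (1.51 ± 0.22) than to spinal cord (4.79 ± 0.22), and another of its probes gave 4.59 for the mean of both tissues.

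Of 9 tested limb position factors 3 were higher and 2 lower than the mean of both tissues, beside 18.4% and 20% of all genes, and 2 were higher and 4 lower than spinal cord. Hoxc9 read 8.90 to 9.46 (median 9.11) in muscle, 7.52 to 8.39 (median 8.08) in spinal cord and 4.50 to 5.40 (median 4.62) in blood, above both tissues, and Hoxc10 differed by 2.02 ± 0.12 from the mean but by 0.67 ± 0.14 from spinal cord. Hoxd10 was detected on 0 of 15 muscle arrays and on all spinal cord arrays, so muscle was at least 28.2-fold lower. Hoxd9 was -2.94 ± 0.12 relative to spinal cord, where it read 8.37 to 9.404 (median 8.75), against 5.24 to 6.53 (median 6.02) in muscle. Tbx15, a limb mesenchyme factor, differed by 2.62 ± 0.12.

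Ubiquitin ligases of muscle were higher in 9 of 9 cases, all above both tissues (median 4.74). Asb2, which targets filamins, read 12.79 to 13.42 (median 13.10) in muscle, 5.65 to 10.02 (median 5.91) in spinal cord and 4.75 to 6.26 (median 5.09) in blood, and without replicates 3 and 5 at 70 days spinal cord read at most 6.08. Trim54, a sarcomere RING protein, differed by 6.58 ± 0.19, Fbxo40, which acts on insulin receptor substrate in muscle, by 6.06 ± 0.16, and Asb14 by 5.96 ± 0.18. Secreted factors were higher than the mean of both tissues in 4 of 4 cases, with Vegfa at 3.41 ± 0.13. Against spinal cord 2 of the 4 were called higher and against blood 3, and 1 was above both. Il15 was 3.05 ± 0.14 above spinal cord and 0.36 ± 0.14 relative to blood, where its range overlapped with that of muscle.

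**Figure D3:**
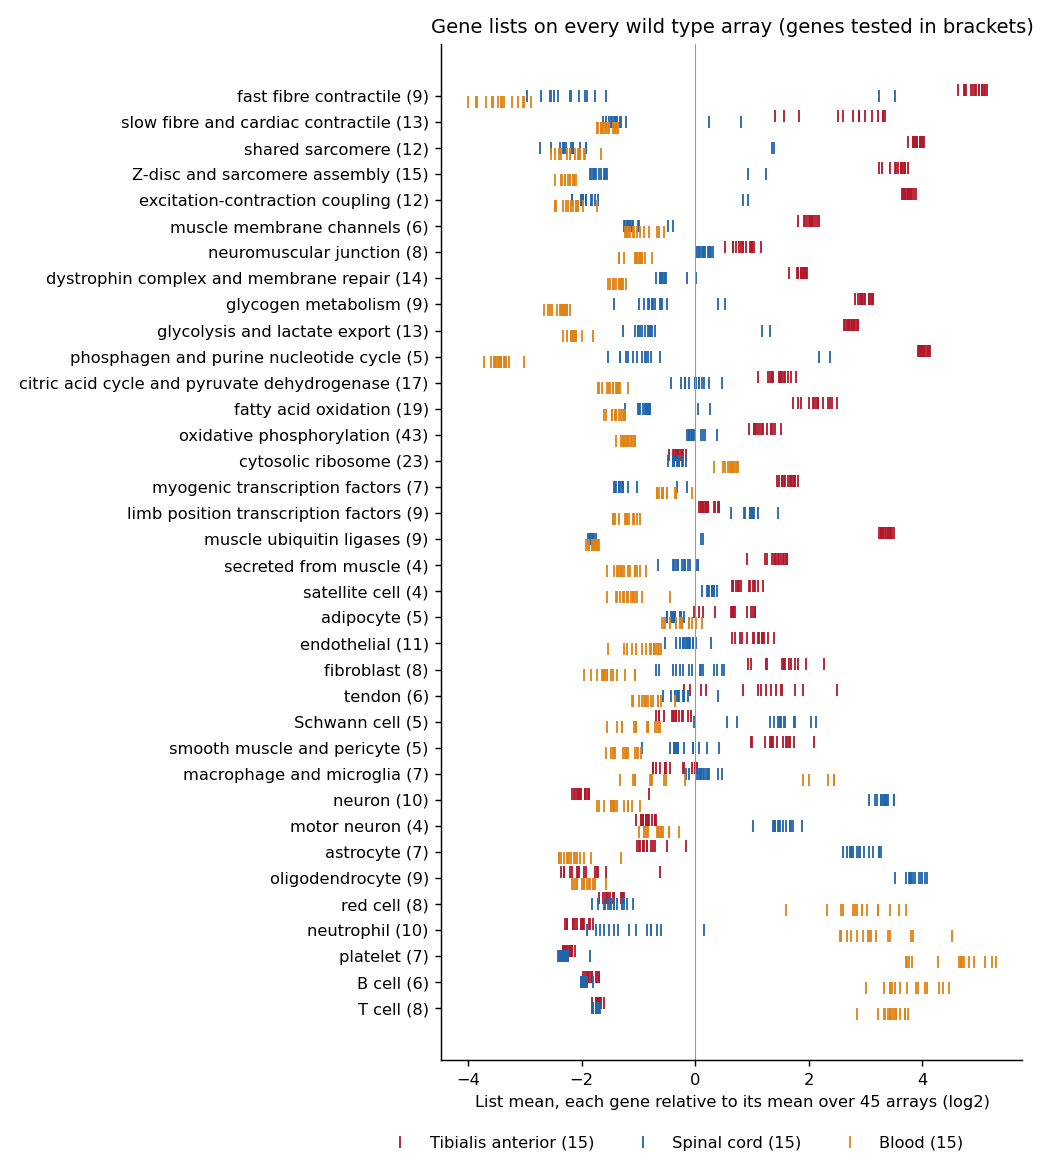
Each mark is the mean of 1 gene list on 1 wild type array (x axis, log2, each gene relative to its mean over 45 arrays), with the lists down the y axis and the number of tested genes in brackets. The fast fibre list runs from 4.63 to 5.14 in muscle and -2.96 to 3.53 in spinal cord, where the 2 highest marks are replicates 3 and 5 at 70 days.

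In many enzyme families the muscle form was higher and the other form was often lower. Of 36 tested muscle forms 35 were higher, and of 43 tested forms used by other tissues 26 were lower, 1 was higher and 16 were not called against the mean of both tissues, and 11 were below both. In 28 families both kinds were tested, and in 17 of them a muscle form was higher while another form was lower. The families were listed from textbook knowledge of their tissue use, so the direction of the muscle forms is no independent evidence; the same shares over all genes were 18.4% higher and 20% lower.

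Creatine kinase had one form in each direction. Ckb, the brain form, read 8.96 to 10.76 (median 9.54) in muscle, where it was at most 9.72 without replicate 7 at 100 days, 14.74 to 15.20 (median 15.02) in spinal cord and 8.38 to 9.68 (median 9.05) in blood, while Ckm differed by 8.95 ± 0.42 in the other direction. Ckmt1, the ubiquitous mitochondrial form, read 4.37 to 7.39 (median 4.49) in muscle, 11.69 to 12.34 (median 12.18) in spinal cord and 4.41 to 8.08 (median 4.54) in blood, a difference of -7.40 ± 0.24 from spinal cord, and its highest muscle value came from replicate 7 at 100 days, with the others at most 5.12. Against blood Ckb and Ckmt1 differed by 0.54 ± 0.12 and -0.02 ± 0.24.

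Several glycolysis families had a muscle form higher and another form lower than the mean of both tissues. The aldolase of muscle, Aldoa, differed by 3.20 ± 0.12, and Aldoc, that of brain, by -4.67 ± 0.20. Eno3 differed by 7.31 ± 0.43 and the neuronal enolase Eno2 by -3.26 ± 0.16, although Eno2 was 0.87 relative to blood. Pfkm differed by 4.88 ± 0.11, the liver form Pfkl by -1.39 ± 0.09 and the platelet form Pfkp by -2.96 ± 0.12. Glucose entry went likewise: Slc2a4, the insulin-dependent transporter, differed by 5.34 ± 0.16, Slc2a1 by -1.82 ± 0.08 and Slc2a3, the carrier of neurons and blood cells, by -4.78 ± 0.15. Glycogen phosphorylase had Pygm higher, with Pygb, the brain form, at -3.77 ± 0.13 and Pygl, the liver form, at -1.46 ± 0.12, which was 0.06 relative to spinal cord. The other hexokinases, Hk1 and Hk3, were not called against the mean of both tissues, at -0.52 and -0.61. The Hk1 probe read near the lower end of the scale, with means of 4.56 in muscle, 5.05 in spinal cord and 5.13 in blood. Hk3 was called lower than blood, at -1.76, and stood at 0.55 relative to spinal cord.

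In the respiratory chain Cox6a1 read 9.33 to 9.998 (median 9.68) in muscle, 12.37 to 13.28 (median 12.56) in spinal cord and 12.61 to 13.28 (median 12.87) in blood, below both tissues without overlap, and its muscle counterpart Cox6a2 differed by 8.21 ± 0.42. Cox8a differed by -2.48 ± 0.06 and Cox8b by 8.07 ± 0.33. Cox7a2 was the exception among the 3 pairs, since its difference of 0.99 ± 0.11 was not below 0 and missed the size for a call, and without muscle replicate 7 at 100 days it passed at 1.03. The adenine nucleotide carriers split too, with Slc25a4 at 2.51 ± 0.28 and Slc25a5 at -1.95 ± 0.09. The translation factor Eef1a2, which replaces Eef1a1 in fibres and neurons after birth, read 13.39 to 13.93 (median 13.67) in muscle, 12.86 to 13.61 (median 13.40) in spinal cord and 4.59 to 5.75 (median 5.13) in blood. Muscle and spinal cord differed by 0.33 ± 0.09 for it, while Eef1a1 was -2.31 ± 0.09 relative to the mean of both tissues.

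Some families did not split. Ldhb, the heart form of lactate dehydrogenase, was the 1 other form that was higher, at 1.498 ± 0.15. It read 9.39 to 11.56 (median 10.99) in muscle, 12.32 to 12.92 (median 12.72) in spinal cord and 5.02 to 7.32 (median 6.23) in blood, between both tissues without overlap with either, so muscle was -1.73 ± 0.18 relative to spinal cord and 4.72 ± 0.18 relative to blood. Tpm1 was the muscle form that was not called, at -0.71 ± 0.15, while Tpm2 differed by 5.30 ± 0.29. For Actb, the cytoplasmic actin, 4 probes gave -1.79, -1.20, -0.18 and 3.23, so its direction depends on the probe. The calcium pump Atp2a2, used by slow fibres, heart and other tissues, was -3.21 ± 0.13 relative to spinal cord and 1.73 ± 0.13 relative to blood, while Atp2a1 of fast fibres differed by 6.78 ± 0.40 from their mean.

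**Figure D4:**
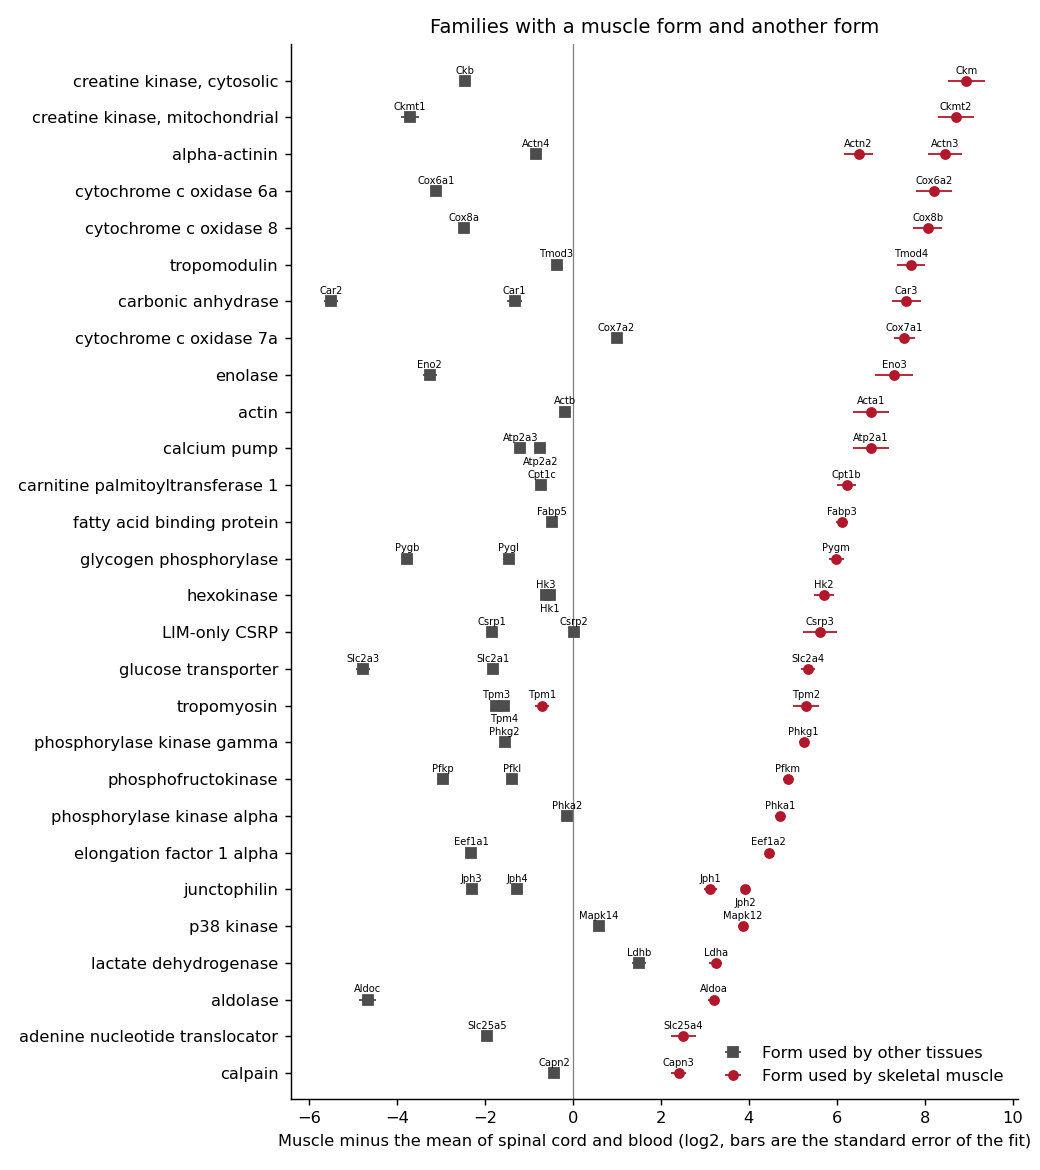
Difference between wild type muscle and the mean of spinal cord and blood (x axis, log2, with standard errors of the limma fit) for every tested gene of the 28 families that hold a muscle form (red circles) and another form (grey squares). Red circles lie to the right of 0 except Tpm1 at -0.71, and the grey squares at or above 0.99 are Cox7a2 and Ldhb.

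Of the 486 genes below both tissues 78 were detected on 0 of 15 muscle arrays. Zcchc18, among the 15 with the largest differences, read 4.51 to 7.97 (median 4.75) in muscle, 13.33 to 14.03 (median 13.78) in spinal cord and 7.45 to 9.47 (median 9.01) in blood, and its highest muscle value was that of replicate 7 at 100 days, with the other 14 at 4.51 to 6.02. The amino acid carrier Slc38a5 was detected on 0 of 15 muscle arrays, so muscle was at least 7.31-fold lower than spinal cord and at least 112-fold lower than blood. Gad1, which makes the transmitter GABA, read 4.48 to 6.22 (median 4.59) in muscle, 10.81 to 11.55 (median 11.04) in spinal cord and 7.51 to 10.39 (median 9.75) in blood; its muscle arrays other than replicate 7 at 100 days read at most 4.78, and another Gad1 probe gave -2.20 against -5.57. Muscle lay below both tissues for each of these genes.

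Car2, the common cytosolic carbonic anhydrase, read 4.70 to 6.81 (median 5.75) in muscle, 9.31 to 10.88 (median 10.20) in spinal cord and 11.06 to 13.22 (median 12.31) in blood, whereas Car3, that of muscle and fat, differed by 7.58 ± 0.32. Prkcb, a protein kinase C, differed by -4.94 ± 0.12, the potassium channel subunit Kcnab2 by -5.39 ± 0.15, the endocytic adaptor Pacsin1 by -5.10 ± 0.13 and the actin bundling protein Dmtn by -4.86 ± 0.17. S100a8, a neutrophil protein, differed by -5.29 ± 0.28, with the spinal cord arrays spread over 5.18 to 10.44 (median 8.10). Without spinal cord replicates 3 and 5 at 70 days that range was 5.78 to 10.44. Ccdc92, Cdr2, Cldn10 and Jakmip1 lay between -5.83 and -4.78. The remaining members of the 15 were the probes ILMN_3161601 and ILMN_1240381, for which no gene is given. The 4 Cldn10 probes gave -4.87, -4.04, -2.99 and 0.17.

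Muscle tissue also holds vessels, connective tissue, fat, nerve and satellite cells. Fibroblast genes were higher than the mean of both tissues in 8 of 8 cases (median 2.23), beside 18.4% of all genes. Endothelial genes were higher in 8 of 11 cases and smooth muscle and pericyte genes in 5 of 5. Tendon genes were higher in 5 of 6 cases and adipocyte genes in 3 of 5. Without muscle replicate 7 at 100 days and spinal cord replicates 3 and 5 at 70 days, 4 of 6 tendon genes were higher. Above both tissues lay 6 fibroblast, 5 endothelial, 5 smooth muscle and pericyte, 4 tendon and 1 adipocyte genes, beside 11.7% of all genes. Against blood 2 endothelial genes were lower, and against spinal cord 1 endothelial and 1 tendon gene. Cdh5, the cadherin of endothelium, read 8.35 to 9.500 (median 8.91) in muscle, 6.01 to 7.12 (median 6.33) in spinal cord and 4.62 to 5.08 (median 4.75) in blood. Vwf, also of endothelium and of platelets, was 0.72 ± 0.17 relative to spinal cord and -2.76 ± 0.17 relative to blood. Col1a1, a chain of type I collagen, differed by 3.79 ± 0.26, Myh11, the smooth muscle myosin, by 3.04 ± 0.11, Tnmd, a tendon protein, by 2.33 ± 0.20, and Adipoq, the fat hormone adiponectin, by 2.01 ± 0.21. Satellite cell genes were higher in 2 of 4 cases, namely the cadherin Cdh15 at 3.03 ± 0.12 and the integrin Itga7 at 2.50 ± 0.07, which fibres also express. Against spinal cord 2 of the 4 satellite cell genes were higher and 2 were lower.

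Most neuron, oligodendrocyte and blood cell genes were lower, and other nerve and glia lists were mixed. Neuron genes were lower in 8 of 10 cases and oligodendrocyte genes in 9 of 9, with medians of -6.50 and -5.59 against spinal cord. Of all genes 20% were lower than the mean of both tissues, 19.4% were lower than spinal cord and 23.1% were higher than blood. Beside these shares, of 7 astrocyte genes 3 were lower than the mean and 4 were not called. Against single tissues 6 of the 7 were lower than spinal cord and 2 higher than blood. Of 4 motor neuron genes 2 were lower than the mean and 4 lower than spinal cord, beside 20% and 19.4% of all genes. Of 7 macrophage and microglia genes 0 were lower than the mean and 1 was higher, beside 20% and 18.4% of all genes. The higher one was the mannose receptor Mrc1 at 1.25 ± 0.22, and 3 of the 7 were lower than spinal cord. Gfap, the filament of astrocytes, was detected on 0 of 15 muscle arrays, and muscle was at least 18.4-fold lower than spinal cord. Slc5a7, the choline carrier of motor neurons, was detected on 0 of 15 muscle arrays and was at least 10.8-fold lower. No Schwann cell gene passed against the mean of both tissues (0 of 5), where 38.4% of all genes differed. Of these 5 genes 3 were lower than spinal cord, beside 19.4% of all genes. T cell genes were lower than the mean in 7 of 8 cases, B cell genes in 6 of 6 and platelet genes in 7 of 7. Neutrophil genes were lower in 10 of 10 cases and red cell genes in 7 of 8, beside 20% of all genes. Cd79a, Cd3g and Il7r were detected on 0 of 15 muscle arrays and on all 15 blood arrays. Ank1 was the red cell list's 1 higher gene, at 1.24 ± 0.21; it read 10.01 to 11.07 (median 10.62) in muscle, 9.89 to 10.88 (median 10.33) in spinal cord and 6.16 to 10.15 (median 8.68) in blood, and fibres express a form of it at the sarcoplasmic reticulum. Its other probes gave 4.15 and -0.02, so the call depends on the probe.

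Some genes were higher in muscle than in 1 of the other tissues and were not called against the other. In 1022 genes muscle was higher than blood and not called against spinal cord (9.11%), and in 498 it was higher than spinal cord and not called against blood (4.44%). Rbfox1, a splicing factor of muscle, heart and neurons, read 12.15 to 13.05 (median 12.69) in muscle, 11.88 to 13.04 (median 12.58) in spinal cord and 4.60 to 5.27 (median 4.79) in blood, and was at least 107-fold above blood. Fxyd6, a sodium pump partner, followed the same order, at 0.74 ± 0.14 relative to spinal cord and 6.65 ± 0.14 relative to blood. On the blood side were Rbm38, an RNA binding protein, which read 10.60 to 11.62 (median 11.20) in muscle, 5.28 to 8.12 (median 5.64) in spinal cord (at most 5.88 without replicates 3 and 5 at 70 days) and 10.96 to 12.29 (median 11.67) in blood, and Map2k3, a kinase that activates p38, at 4.01 ± 0.13 above spinal cord and -0.63 ± 0.13 relative to blood. Crat, the carnitine acetyltransferase, stood at 4.08 ± 0.18 and 0.98 ± 0.18. A difference that was not called does not show that levels are alike.

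For 263 genes muscle lay below spinal cord and above blood (2.34%), and for 165 above spinal cord and below blood (1.47%). Snrpn, an imprinted splicing gene, read 10.13 to 10.65 (median 10.38) in muscle, 13.42 to 14.08 (median 13.83) in spinal cord and 4.62 to 5.24 (median 4.83) in blood, at -3.43 ± 0.07 and 5.51 ± 0.07; its other probe gave -0.47 against the mean of both tissues where this one gave 1.04. Syp, the synaptic vesicle protein synaptophysin, was detected on all muscle arrays and read 6.28 to 8.32 (median 7.08) there and at most 7.56 without replicate 7 at 100 days, -6.53 ± 0.14 relative to spinal cord and 1.90 ± 0.14 relative to blood. Fez1, an axonal transport adaptor, stood at -5.83 ± 0.09 and 2.54 ± 0.09. In the opposite order, the interferon-induced gene Rsad2 read 7.56 to 8.75 (median 8.13) in muscle, 5.21 to 6.69 (median 6.23) in spinal cord and 14.08 to 14.96 (median 14.74) in blood, and the cell cycle factor E2f2 was 1.94 ± 0.15 above spinal cord and -6.12 ± 0.15 relative to blood.

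Among the 15 muscle arrays most genes moved little. Of 6183 genes detected on all 15, the median range from lowest to highest was 0.80, and 95% had a range under 1.66. Csrp3, a slow fibre LIM protein that senses stretch, had the widest, from 8.31 to 13.54 (median 11.75). Its 3 lowest arrays were 70 days replicates 5 and 6 and 100 days replicate 7, at 9.54, 8.31 and 9.16, with the other 12 from 11.10 upward. Those 3 arrays were also the 3 lowest for Myl2, Myl3, Tnnt2, Myoz2, Ankrd2 and Casq2, in all 7 of 13 tested slow fibre and cardiac genes. For Ankrd2 they read 9.02, 8.59 and 8.95, and the other 12 arrays 10.41 to 12.19. Tnnc1, the slow troponin C, was lowest on 100 days replicate 7, at 5.03 against a median of 8.995. The fast fibre list had a mean between -0.30 and 0.21 around its average on the 15 arrays, where the slow list ranged from -1.30 to 0.63. This grouping of genes was seen in the values and carries no test.

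Tendon genes varied over a wider span than the slow list, from -1.28 on 70 days replicate 2 to 1.41 on 70 days replicate 5 as a list mean. Chad, the cartilage and tendon protein chondroadherin, ran from 5.78 to 10.30 (median 8.49), and Comp, a matrix protein of tendon, from 6.09 to 10.02 (median 8.08). The arrays lowest for the slow list were above the tendon list's average, at 1.41 on 70 days replicate 5, 0.81 on 100 days replicate 7 and 0.25 on 70 days replicate 6. Arrays not low for the slow list lay on both sides of that average. Tendon means were 0.66 on 70 days replicate 7 and 0.44 on 100 days replicate 6, with slow means of -0.20 and 0.60. On 70 days replicate 2, lowest for tendon, the slow mean was 0.60. A link between the 2 lists was not tested. Cish, a target of cytokine signalling, ran from 6.74 to 10.30, Tnfrsf12a, the TWEAK receptor, from 7.95 to 11.72, and H2-Aa, an antigen presenting molecule of immune cells, from 5.57 to 9.13. On replicate 7 at 100 days, neuron and oligodendrocyte lists stood 1.12 and 1.31 above their muscle average, and both lists were not above 0.07 and 0.35 on the other 14. Syn1, of synaptic vesicles, read 7.75 on it and at most 5.71 elsewhere in muscle, and Mag, a myelin protein, 8.18 and 6.51. Their part in the low slow fibre values of that array was not tested.

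**Figure D5:**
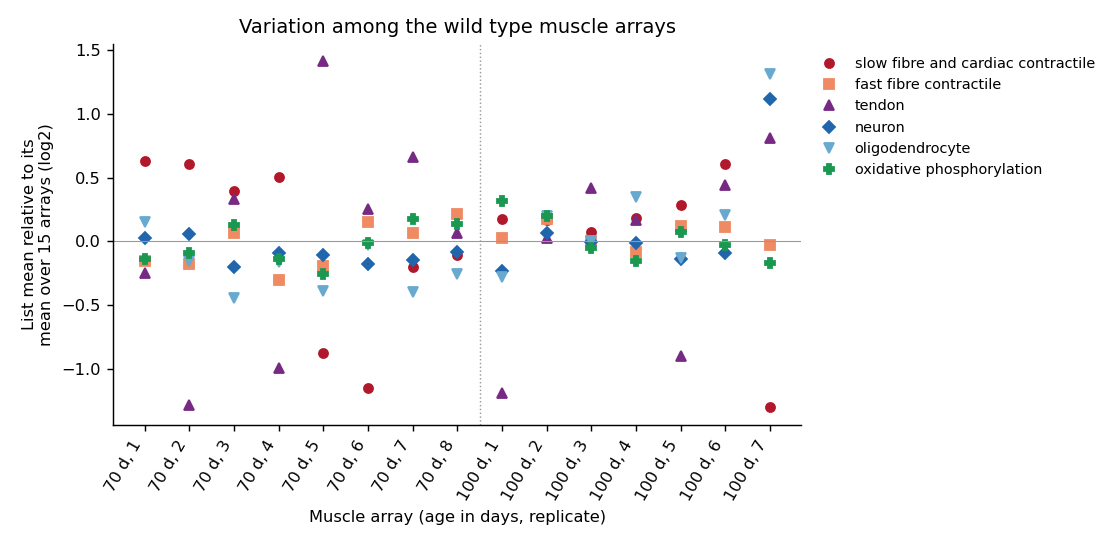
Mean of 6 gene lists (log2, y axis, each gene relative to its mean over the 15 arrays) on each wild type muscle array (x axis, age in days and replicate). The slow fibre list is lowest on 70 days replicates 5 and 6 and on 100 days replicate 7, and the last of these has the highest neuron and oligodendrocyte means, at 1.12 and 1.31.

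Age was the question the design added: whether the difference between muscle and the mean of both tissues changed from 70 to 100 days. It changed in 3 genes at a limma adjusted p under 0.05 (0.0267% of those tested), with 735 genes at an unadjusted p under 0.05 where 561 would be 5% of all. Sucla2, a citric acid cycle enzyme subunit, read 6.35 to 8.37 (median 7.87) in muscle at 70 days and 8.38 to 8.88 (median 8.63) at 100 days. Its difference rose by 1.20 ± 0.22 (limma adjusted p = 0.00593), while spinal cord read 6.25 to 6.87 (median 6.59) and 5.82 to 6.93 (median 6.35). In blood the means of Sucla2 were 4.74 and 4.58, near the lower end of the scale. All 7 muscle arrays at 100 days were above the 8 at 70 days.

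Pcolce2, which assists collagen processing, read 4.57 to 6.16 (median 4.90) and 5.69 to 7.25 (median 6.90) in muscle at 70 and 100 days, so the ages overlapped, and its difference rose by 1.38 ± 0.25 (limma adjusted p = 0.00593). Its muscle median at 70 days and its blood means of 4.58 and 4.63 lay near the lower end of the scale. Fcgr4, an Fc receptor of neutrophils and monocytes, read 5.37 to 6.02 (median 5.72) and 4.65 to 5.19 (median 4.95) in muscle, near the lower end of the scale and detected on 6 of 15 arrays. In blood Fcgr4 read 9.17 to 10.20 (median 9.89) and 9.96 to 10.84 (median 10.21), and the mean in spinal cord was 5.09 and 5.44. The interaction of -1.23 ± 0.17 (limma adjusted p = 6.27e-05) combines a lower muscle value with higher values in both other tissues. The next in order, Gsn, the actin severing protein gelsolin, did not pass, at 1.51 ± 0.33 (adjusted p = 0.103). Without muscle replicate 7 at 100 days 5 genes passed, the same 3 with Ccl21a at 1.24 and Mboat7 at -0.91. Ccl21a and Mboat7 were named after their values were seen. With arrays set to a common median 0 genes passed in limma, with 246 at an unadjusted p under 0.05.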

How the data were processed

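Per the file headers, the deposited tables held a non-normalized signal intensity for each of 24613 probes, with the scanner software's steps not given in the sources used here. A detection p-value was deposited with every intensity. The deposited series matrix held log2 values that kept the order of the signal, by a normalization that no source here names; its medians lay at 7.42 on all but 1 wild type array, at 6.38, and it served as an alternative only. Per the labels, biotinylated cRNA was made with Ambion's MessageAmp kit.

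The 45 wild type arrays were background corrected and quantile normalized together with neqc of limma 3.58.1 (offset 16, R 4.3.3), in which detection p-values stood in for negative control probes. Quantile normalization gives every tissue the same distribution, so that differences are relative to the other genes of an array. A probe entered when it was detected on at least 7 of 15 arrays of any tissue, and each gene was represented by its brightest probe. A single gene symbol was given for 20984 probes, several for 1 and none for 3628, and a probe with none counts as its own gene. RefSeq matched 20968 probes through Entrez identifiers and changed 0 symbols. The 7 lines that name no probe held 0.00539% of the signal and were not used. Within groups of a tissue, 0 of 49 array pairs were identical in each tissue. Depth has no meaning for arrays, and the number of arrays limits the precision.

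Limma fitted 6 groups of tissue and age, with both ages weighted equally, and every p-value in the text is from limma, adjusted over all genes tested by Benjamini and Hochberg. Where a tissue detected a probe on 0 of 15 arrays the fold is a bound. The fit was tested on simulated data.

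The members, gene lists, isoform families and naming rule were chosen with earlier results of these data known. The rule named the 20 highest genes above both tissues, the 15 lowest below both, up to 4 called members of each list and 2 in the opposite direction, all isoform family members, 5 genes for each way of resembling 1 tissue, 5 by age and the 10 with the widest range in muscle; not all of them are described. List counts cover members that had a probe and entered the tests. Figures were drawn with matplotlib 3.10.9.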

Additional observations from a re-analysis of the deposited data

Results flagged for a closer look

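Within each muscle age group, 72 gene list means were examined for an array far from the others of its group (Dixon's test at 95%), and 7 had one, where chance alone gives about 1 in 20, or 3.6. Of these 5 concern replicate 7 at 100 days. The 10 genes with the widest range in muscle gave another 20 sets and 2 such arrays, in Csrp3 and H2-Aa, which is no test since they were chosen for their spread. Its list mean was 1.41 for slow fibre and cardiac contractile genes (the other arrays 2.79 to 3.31), 3.44 for Z-disc and sarcomere assembly (3.63 to 3.70) and 1.65 for the dystrophin complex and membrane repair (1.81 to 1.92). It was -0.82 for neuron genes (-2.16 to -1.86) and -0.61 for oligodendrocyte genes (-2.20 to -1.57). Csrp3 read 9.16 on the same array (11.28 to 12.85).

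On other arrays, the list of factors secreted from muscle had a mean of 0.92 on replicate 5 at 70 days, with the others at 1.24 to 1.51. The T cell list stood at -1.82 on replicate 1 at 100 days (-1.74 to -1.68), and H2-Aa read 7.97 on replicate 2 at 100 days (6.91 to 7.32).

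The difference between muscle and the mean of both tissues changed with age in Pcolce2 by 1.38, in Sucla2 by 1.20 and in Fcgr4 by -1.23, by limma's interaction term with adjusted p of 0.00593, 0.00593 and 6.27e-05.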

How the results depend on the processing

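For values of named genes and medians of lists, 10771 recomputed values kept their direction and their side of the threshold or their size, 183 lost a call, 8 gained one, 24 list medians moved and 11 reversed. The cause of the moves in the counts below was not tested, beyond the fewer genes tested where stated. With no background correction 2766 genes differed from the mean of both tissues, 2719 from spinal cord and 3540 from blood. In that setting 880 were above both and 277 below both. With median centring 938 were above both, where the main setting gave 1312. With probes detected in every tissue (5985 genes) the counts were 2035 for the mean, 2075 for spinal cord, 2759 for blood and 638 above both. The deposited log2 values gave 1694 for the mean, 1726 for spinal cord, 2271 for blood, 600 above both and 132 below both. A floor of 2 on the log2 difference gave 1602, 1739, 2479, 469 and 142 in that order, and no floor 9234, 8684, 8635, 2759 and 1660. The change with age was called in 23 genes with array weights, 5 without the dim spinal cord array, 5 without muscle replicate 7 at 100 days, 0 with median centring (246 at an unadjusted p under 0.05 in limma) and 0 with probes detected in every tissue (381 at an unadjusted p under 0.05).

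With median centring the differences from the mean of both tissues reversed for Actb (0.0867), Csrp2 (-0.0550) and Pcolce2 (-0.36). Cacna1c reversed with no detection filter (0.0289) and Snrpn in the deposited log2 values (-0.44). With probes detected in every tissue a different probe stood for Cldn10, at 0.17 against the mean and 0.69 against spinal cord. In that setting lists had fewer members and the probe of a gene could change. There the list medians reversed for the neuromuscular junction (-0.61), satellite cells (-0.14), macrophages and microglia (0.17) and astrocytes (0.26). The cause of the reversals other than that of Cldn10 was not tested.

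A replicate block across tissues left 4313 genes called against the mean, 1313 above both, 486 below both and 3 that changed with age, and of same-numbered arrays 12 of 45 pairs correlated best with their own number. Not every pair had a correlation of deviations over 0.1, so the arrays were not treated as paired: 9 of 15 muscle and spinal cord pairs did (-0.10 to 0.33), with 6 of 7 at 100 days, of which 5 correlated best with their own number, against 3 of 15 for muscle and blood and 2 of 15 for spinal cord and blood. This is a hint from the data, not the design. Leaving out spinal cord replicates 3 and 5 at 70 days left 4281 genes called against the mean. Leaving out blood replicate 6 at 70 days, muscle replicate 7 at 100 days, or that array with both spinal cord arrays was chosen after seeing the data and left 4324, 4320 and 4302, and the change with age then held 4, 5 and 3 genes. The slide as a block was not run, since the files give no slide. Among genes with several probes (1701), 14 had probes called in opposite directions and 436 had some probes called and others not. Signal near background limits the fold of undetected genes, which is why those are bounds.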
